A study of Mus musculus with 8 samples.

Results

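The genes described here are 9 basic helix-loop-helix (bHLH) transcription factors of the heart and nervous system, Hand1, Hand2, Neurod1, Neurog1, Neurog2, Neurog3, Olig1, Olig2 and Atoh1. They are 9 of 21887 protein-coding genes of the mouse assembly GRCm38, and they were taken by name, as a family chosen with earlier results of these data known. A gene was called marked in a genotype when at least 1 of the authors' peaks lay over it or within 5 kb of either end. By that rule the wild-type list gave 6 of its 28057 peaks to these genes, the Ezh2-Cko list 7 of 33739, the Utx-cKO list 11 of 49405 and the Jmjd3-Cko list 8 of 27013.

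The peaks come from chromatin immunoprecipitation and sequencing (ChIP-seq) of cartilage chondrocytes grown in DMEM with serum. The antibody was raised against histone H3 trimethylated at lysine 27 (H3K27me3). Wild-type cells were compared with cells in which Ezh2 (Ezh2-Cko), Utx (Utx-cKO) or Jmjd3 (Jmjd3-Cko) had been deleted. Each genotype had 1 ChIP library and 1 input library. The labels name no Cre driver, no age and no number of animals pooled. The ChIP libraries held between 25655346 (Jmjd3-Cko) and 34786292 (Ezh2-Cko) fragments without duplicates. With 1 library per genotype no difference below has a replicate check, and no p-value between genotypes is given.

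H3K27me3 is written by Ezh2 within Polycomb repressive complex 2, and the demethylases Utx and Jmjd3 remove it. Developmental transcription factor genes that a cell does not use are known as typical carriers of the mark. bHLH factors bind DNA as dimers, usually with a widely expressed E protein, at E-boxes. The neurogenins Neurog1, Neurog2 and Neurog3 and the related Atoh1 commit progenitors to neuronal or endocrine fates, and Neurod1 acts downstream of neurogenins in differentiation. Olig1 and Olig2 specify oligodendrocytes, the myelin-forming cells, and Olig2 also motor neurons. Hand1 and Hand2 shape the heart, the limb bud and the jaw.

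2 features of the lists bear on every value below. First, genes commonly active in chondrocytes carried peaks too, although these libraries do not measure expression. In each of the 4 lists 20 of 20 housekeeping genes and 15 of 15 cartilage genes were marked, Sox9, Sox5, Sox6 and Col2a1 among them. The housekeeping genes had a median fold enrichment of 7.80 in wild type, against 3.02 over the 4 marked bHLH genes. This goes against what is known of H3K27me3, so a marked gene is not read here as a repressed one, and what the antibody enriched was not tested. Second, the peak caller scaled each library pair to its smaller library, which held 16599532 fragments in wild type and 16645811 in Jmjd3-Cko, but 24041619 in Ezh2-Cko and 23983492 in Utx-cKO. A weak peak is called more readily in a deeper pair, and its part in the differences was not tested. Library titles share a prefix only between Utx-cKO and Jmjd3-Cko, so batch and genotype cannot be told apart elsewhere.

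The DNA just before the transcription start shows where the peaks fell. The 250 bases upstream of the start are printed for 3 genes with a peak there in all 4 genotypes, Hand2 (chr8:57320733-57320982, plus strand), Neurog1 (chr13:56252181-56252430, minus strand) and Atoh1 (chr6:64728875-64729124, plus strand). They are followed by Olig2 (chr16:91225300-91225549, plus strand), with a peak there in Utx-cKO alone, and Neurog3 (chr10:62132840-62133089, plus strand), with none in any list. Sequences are RefSeq's for GRCm38.p6, written 5′ to 3′ on the strand of the gene and ending at the base before the start. For Hand2, Neurog1 and Atoh1, capitals mark bases inside a called peak in all 4 genotypes. For Olig2 they mark bases inside the weaker of its 2 Utx-cKO peaks.
Hand2: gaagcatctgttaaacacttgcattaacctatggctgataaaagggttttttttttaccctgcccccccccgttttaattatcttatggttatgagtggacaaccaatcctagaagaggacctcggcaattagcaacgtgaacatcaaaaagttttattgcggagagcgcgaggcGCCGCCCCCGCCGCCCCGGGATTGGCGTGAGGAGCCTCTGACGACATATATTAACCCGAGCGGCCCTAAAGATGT
Neurog1: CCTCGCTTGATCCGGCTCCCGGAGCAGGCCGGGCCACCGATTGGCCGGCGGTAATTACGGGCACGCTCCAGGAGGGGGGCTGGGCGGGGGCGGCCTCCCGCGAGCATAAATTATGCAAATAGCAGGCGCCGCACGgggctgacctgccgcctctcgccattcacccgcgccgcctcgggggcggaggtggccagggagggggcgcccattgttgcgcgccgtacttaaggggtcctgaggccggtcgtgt
Atoh1: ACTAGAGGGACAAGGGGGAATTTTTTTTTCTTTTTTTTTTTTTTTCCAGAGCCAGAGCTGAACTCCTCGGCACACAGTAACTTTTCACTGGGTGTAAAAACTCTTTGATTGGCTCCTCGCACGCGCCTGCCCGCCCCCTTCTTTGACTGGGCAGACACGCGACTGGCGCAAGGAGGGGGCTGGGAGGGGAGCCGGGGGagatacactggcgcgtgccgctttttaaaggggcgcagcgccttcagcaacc
Olig2: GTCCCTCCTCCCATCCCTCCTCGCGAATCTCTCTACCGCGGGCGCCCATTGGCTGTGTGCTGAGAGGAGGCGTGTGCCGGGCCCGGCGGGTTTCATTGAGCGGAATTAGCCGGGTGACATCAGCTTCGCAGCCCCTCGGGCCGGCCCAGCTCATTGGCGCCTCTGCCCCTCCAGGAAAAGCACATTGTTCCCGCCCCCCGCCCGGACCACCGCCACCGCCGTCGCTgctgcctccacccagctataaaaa
Neurog3: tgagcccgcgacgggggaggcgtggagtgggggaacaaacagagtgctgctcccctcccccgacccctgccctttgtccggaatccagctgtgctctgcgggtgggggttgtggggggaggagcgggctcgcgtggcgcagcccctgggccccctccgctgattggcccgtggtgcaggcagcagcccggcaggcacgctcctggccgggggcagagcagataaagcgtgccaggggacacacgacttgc
Capitals cover 75 bases at Hand2, next to the start, 135 at Neurog1, away from the start, 198 at Atoh1 and 226 at Olig2.

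All 7 upstream sequences found in the reference table were richer in CpG than the median promoter. Hand1 and Olig1 had no entry and were not examined. CpG dinucleotides numbered 15 at Hand2, 22 at Neurod1, 29 at Neurog1, 8 at Neurog2, 18 at Neurog3, 22 at Olig2 and 14 at Atoh1, against a median of 6 over 32851 windows of the same length. Neurog3, which had no peak, thus had more CpG than the marked Hand2, Neurog2 and Atoh1. G and C together made up 49.2% at Hand2 and 71.2% at both Neurog1 and Neurog3, with a median of 52.4% over all windows. The E-box CANNTG, a palindrome read on both strands at once, was present at 3 of 7 (Hand2, Neurod1 and Neurog3), against 66.2% of all windows. Among E-boxes, the form CATATG stood at Neurod1 alone (3.46% of all windows) and CAGCTG at Neurog3 alone (13.0%). No E-box thus lay in the 250 bases of Neurog1, Neurog2, Olig2 and Atoh1, which says only that these letters are not in that window.

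In wild-type chondrocytes 4 of the 9 genes were marked: Hand2, Neurog1, Neurog2 and Atoh1. The same 4 were marked in every knockout list too. Hand1 was marked in all 3 knockouts and not in wild type, Neurod1 and Olig2 in Utx-cKO alone, Olig1 in Jmjd3-Cko alone, and Neurog3 in none. Counts were thus 4 of 9 for wild type, 5 for Ezh2-Cko, 7 for Utx-cKO and 6 for Jmjd3-Cko. Of all protein-coding genes, 68.7% were marked for wild type, 70.6% for Ezh2-Cko, 73.5% for Utx-cKO and 68.9% for Jmjd3-Cko. The 9 genes are short, at most 4000 bp, and a short gene offers less room for a peak. Among the 4212 genes of at most that length, 33.5%, 34.7%, 37.3% and 33.7% were marked in the same order.

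**Figure D1:**
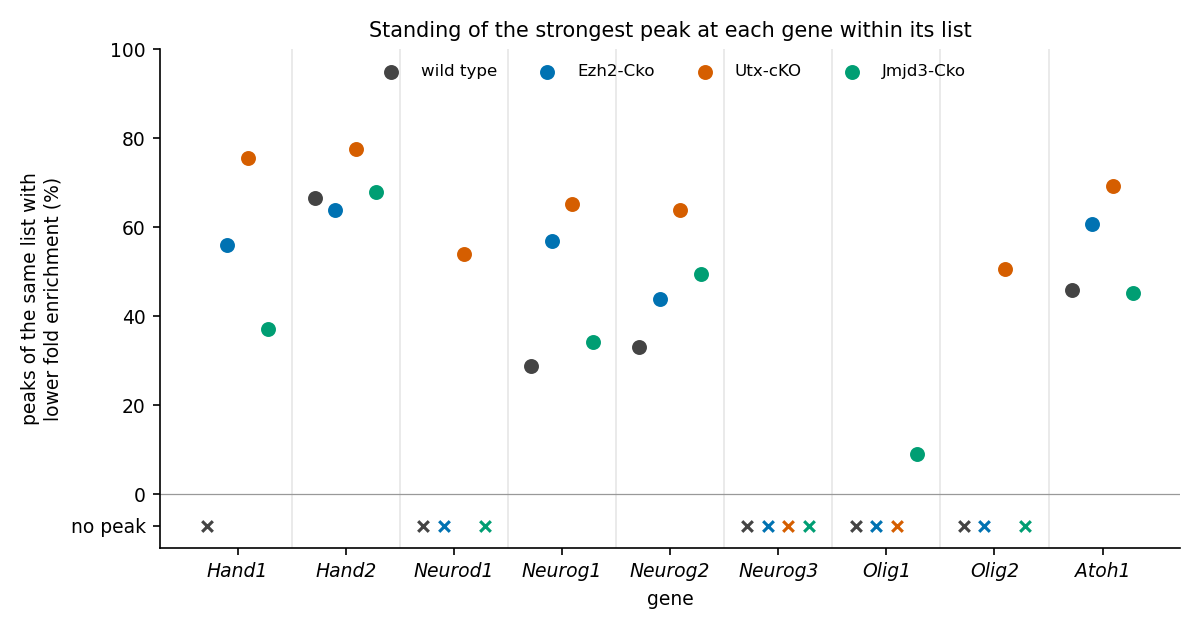
Each point is the strongest peak over or within 5 kb of a gene, plotted as the percentage of peaks in the same list with a lower fold enrichment, by gene and genotype. Crosses mark genotypes with no peak; Hand2, Neurog1, Neurog2 and Atoh1 have a point in all 4 genotypes, and Neurog3 has none.

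Seen from wild type, the knockout lists added bHLH genes and lost none. Of the 5 genes unmarked in wild type, Ezh2-Cko added 1 (Hand1), Utx-cKO added 3 (Hand1, Neurod1 and Olig2) and Jmjd3-Cko added 2 (Hand1 and Olig1). Of all 6854 protein-coding genes unmarked in wild type, Ezh2-Cko added 9.75%, Utx-cKO 16.9% and Jmjd3-Cko 6.38%. The share of all protein-coding genes lost was 1.12%, 0.507% and 1.77% in the same order. Among unmarked genes of at most 4000 bp, the shares added were 3.39%, 6.46% and 2.28%. The 3 comparisons use the same wild-type library, so a gene missed in that library appears as added in each of them.

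The strongest peaks at the bHLH genes were weaker than those at most marked genes in every genotype. Fold enrichment is the authors' ratio of ChIP signal to local input and is compared here only within a list. The strongest peak of the marked bHLH genes had a median fold enrichment of 3.02 for wild type, 3.42 for Ezh2-Cko, 3.50 for Utx-cKO and 3.33 for Jmjd3-Cko. Over all marked genes the medians were 6.49, 7.35, 8.81 and 8.12, and none of the 9 genes reached them in its own list. A longer gene can hold more peaks, and the part of length in this was not tested. Over all peaks of a list the medians were 3.37, 3.07, 3.02 and 3.83. The bHLH medians lay above these in Ezh2-Cko and Utx-cKO and below them in wild type and Jmjd3-Cko. Hand2 ranked highest of the family in each list. Last came Neurog1 in wild type, Neurog2 in Ezh2-Cko, Olig2 in Utx-cKO and Olig1 in Jmjd3-Cko.

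Hand2 (chromosome 8, 57320983 to 57324517, plus strand), needed for the right ventricle and for posterior limb identity, had 2 peaks in every list. The peak over its start had a fold enrichment of 4.98 for wild type, 4.14 for Ezh2-Cko, 5.59 for Utx-cKO and 6.46 for Jmjd3-Cko. Between 64.0% and 77.7% of the peaks of the same list were weaker. The wild-type peak was the short one. It ran for 1401 bp and ended 1289 bp after the start, whereas the knockout peaks ran for 3059, 3415 and 3018 bp and ended 2983, 2947 and 2940 bp after it. All 4 begin close to the start, 111, 75, 467 and 77 bases upstream in the order wild type, Ezh2-Cko, Utx-cKO, Jmjd3-Cko, so the difference in length lies mostly inside the gene, with the Utx-cKO peak also reaching further upstream.

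The Hand2 start peak was thus 2.18 times its wild-type length with Ezh2 deleted, 2.44 times with Utx deleted and 2.15 times with Jmjd3 deleted. Over all wild-type peaks matched to exactly 1 knockout peak, the median ratios were 1.06, 1.25 and 1.03. The Hand2 ratio exceeded 93.3%, 86.0% and 95.1% of those pairs. All 3 ratios divide by the same wild-type peak, so they are not independent of each other. The start peak of Utx-cKO also overlapped the edge, on the side of Hand2, of the neighbouring long non-coding RNA gene Hand2os1, which the other 3 did not.

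The second Hand2 peak lay about 4 kb beyond the end of the gene, at gaps of 4121, 3972, 3840 and 4174 bp in the order wild type, Ezh2-Cko, Utx-cKO, Jmjd3-Cko. It was short, at 401, 415, 645 and 508 bp, with fold enrichments of 3.25, 2.56, 2.69 and 2.68. In Ezh2-Cko and Jmjd3-Cko its −log10 q was 2.94 and 2.86, so it was not called there at a q of 0.001 or less. Further peaks lay beyond the 5 kb limit. One over the non-coding genes Gm34030 and Hdnr was called in all 4 lists, at gaps of 9.38, 9.30, 9.38 and 8.44 kb. Another over Hdnr, 16.3 kb beyond Hand2, was called in the 3 knockouts and not in wild type, and one over Hand2os1 in Ezh2-Cko and Utx-cKO.

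**Figure D2:**
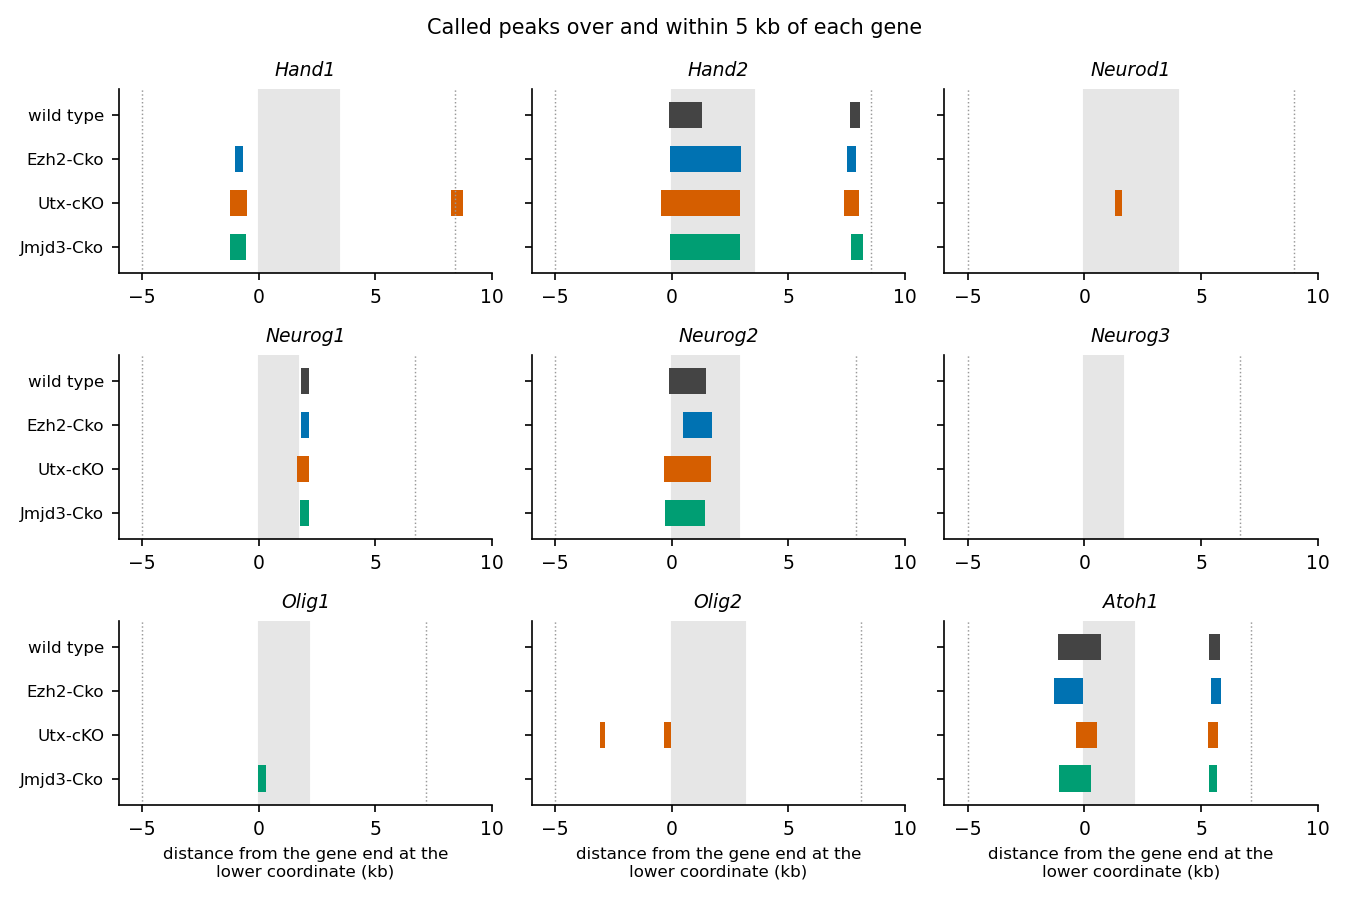
Bars are the authors' peaks in each genotype, plotted by distance in kb from the gene end at the lower coordinate; the grey band is the gene and the dotted lines stand 5 kb beyond its ends. At Hand2 the wild-type bar over the gene ends before the other 3, and at Hand1 the wild-type row is empty.

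Hand1 (chromosome 11, 57828713 to 57832147), a regulator of heart and extraembryonic development, differed between wild type and all 3 knockouts. In wild type the nearest peak lay 25.4 kb from the gene, with fold enrichment 8.39, at 57800139 to 57803277. The knockouts shared a peak just beyond the lower end of the gene, with Ezh2-Cko at 57827700 to 57828032, Utx-cKO at 57827495 to 57828214 and Jmjd3-Cko at 57827471 to 57828163. The 333 bp of the Ezh2-Cko peak were contained in both others, which ran for 720 and 693 bp. None of these peaks touched the gene itself, their gaps to it being 681, 499 and 550 bp.

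At this Hand1 peak the fold enrichment was 3.36 for Ezh2-Cko, 4.97 for Utx-cKO and 3.17 for Jmjd3-Cko, and 56.1%, 75.6% and 37.2% of the peaks in the same list were weaker. Its −log10 q, for which the authors' threshold of 0.05 corresponds to values near 1.30, was 5.94, 10.6 and 4.82. The call in the knockouts therefore did not sit at the threshold. At a fold enrichment of 4 or more Hand1 was marked in Utx-cKO alone. Utx-cKO had a second peak, of 517 bp with fold enrichment 3.54, beyond the other end at a gap of 4799 bp and inside the non-coding gene Gm32915. It was the peak closest to the 5 kb limit on the inner side, and the closest on the outer side was a Utx-cKO peak 6.48 kb from Neurog1.

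Neurog1 (chromosome 13, 56250478 to 56252180, minus strand), which commits cranial sensory neurons, had 1 short peak at the same place in every list. It ended 103 bases upstream of the start in wild type, 116 in Ezh2-Cko and 77 in Jmjd3-Cko, and in Utx-cKO it reached 41 bp into the gene. Lengths were 363, 340, 488 and 365 bp in the order wild type, Ezh2-Cko, Utx-cKO, Jmjd3-Cko, and 326 bp were common to all. The far edges differed by only 24 bp between the 4 lists. Fold enrichment was 2.79, 3.42, 3.50 and 3.07, with 28.8%, 57.0%, 65.3% and 34.2% of the peaks of the same list weaker. In wild type its −log10 q was 2.93, so at a q of 0.001 or less Neurog1 was unmarked there and marked in the knockouts.

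Neurog2 (chromosome 3, 127632733 to 127635636, plus strand), a driver of cortical and sensory neurogenesis, had 1 broader peak in each list. The start used for its upstream sequence above lies 403 bp inside the lower end of the gene. In wild type, Utx-cKO and Jmjd3-Cko the peak covered that start, beginning 524, 716 and 700 bases upstream of it. In Ezh2-Cko it began 78 bases after it. Lengths were 1601 bp for wild type, 1258 for Ezh2-Cko, 1996 for Utx-cKO and 1752 for Jmjd3-Cko, that is 0.786, 1.25 and 1.09 times wild type in the knockouts. Fold enrichment was 2.86, 2.89, 3.43 and 3.78. The −log10 q of 2.79 in wild type and 2.85 in Ezh2-Cko left it unmarked in both of these lists at a q of 0.001 or less.

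Neurog3 (chromosome 10, 62133090 to 62134763, plus strand), the switch to endocrine fate in the pancreas, had no peak within 20 kb in any list. The nearest peaks were between 21.5 and 21.8 kb away, with fold enrichments of 5.46, 6.72, 7.61 and 8.03 in the order wild type, Ezh2-Cko, Utx-cKO, Jmjd3-Cko. The absence of a called peak does not show that the mark is absent.

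Atoh1 (chromosome 6, 64729125 to 64731245, plus strand), which specifies hair cells and cerebellar granule neurons, had 2 peaks in every list. The peak at its start differed in the opposite way to that of Hand2, being longest in wild type. It ran for 1834 bp there, and for 1239, 903 and 1378 bp when Ezh2, Utx and Jmjd3 were deleted, or 0.676, 0.492 and 0.751 times wild type. Only 8.40%, 2.09% and 14.0% of the matched peak pairs had a lower ratio in the same order. These ratios, too, divide by the same wild-type peak. The Ezh2-Cko peak stopped 53 bases before the start, and the other 3 ran 689, 521 and 302 bp past it. All 4 overlapped the neighbouring non-coding gene Gm35851. The Ezh2-Cko start peak was weak, with fold enrichment 2.62 and −log10 q of 1.82. At a q of 0.001 or less it was not called, and the summed peak length at Atoh1 in that list went from 1709 to 470 bp.

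The other Atoh1 peak lay beyond the end of the gene, on the side where a known enhancer of Atoh1 lies; whether they coincide was not tested. Gaps to the gene were 3208, 3284, 3197 and 3204 bp in the order wild type, Ezh2-Cko, Utx-cKO, Jmjd3-Cko, and lengths 485, 470, 406 and 372 bp. Fold enrichment was 3.19, 3.75, 3.82 and 2.67. This peak was stronger than the start peak within wild type (3.14 at the start), Ezh2-Cko (2.62) and Utx-cKO (3.45), and weaker within Jmjd3-Cko (3.50), where its −log10 q of 2.90 kept it out at a q of 0.001 or less.

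**Figure D3:**
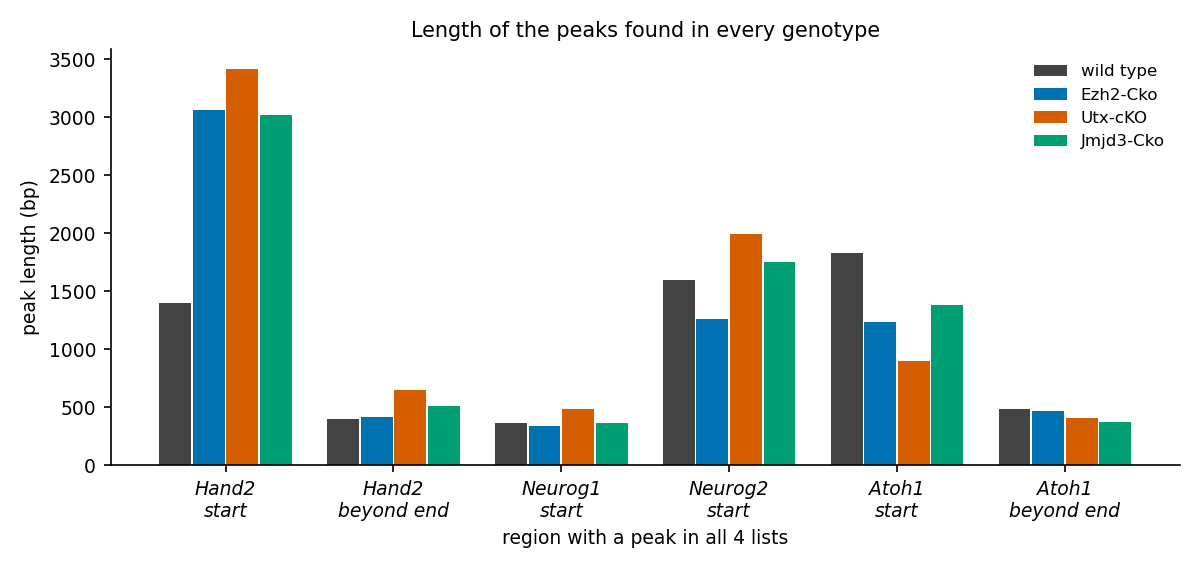
Bars give the length in bp of the peak in each genotype for the 6 regions at these genes that had a peak in all 4 lists. The wild-type bar is the lowest at the Hand2 start (1401 bp) and the highest at the Atoh1 start (1834 bp).

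Neurod1 (chromosome 2, 79452637 to 79456636, minus strand), a differentiation factor of neurons and pancreatic beta cells, was marked in Utx-cKO alone. Its peak of 315 bp lay inside the gene, from 2380 bases after the start, with fold enrichment 3.10 and −log10 q of 3.22. In the other 3 lists the nearest peak was 23.6 kb away.

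The Olig genes lie near each other on chromosome 16 and each was marked in a single demethylase knockout. Olig2 (91225550 to 91228677, plus strand) had 2 short peaks in Utx-cKO, of 243 bp with fold enrichment 3.03 and of 312 bp with 2.59. The latter ended 25 bases before the start and was close to the threshold, with −log10 q of 1.78 and 12.3% of the Utx-cKO peaks weaker. Olig1 (91269769 to 91271939) had 1 peak of 343 bp in Jmjd3-Cko, reaching 25 bp beyond the lower end of the gene. With a fold enrichment of 2.56 and −log10 q of 1.70 it was close to the threshold, and 9.03% of the Jmjd3-Cko peaks were weaker. At a q of 0.001 or less neither Olig gene was marked in any list. In wild type and Ezh2-Cko the nearest peak to Olig2 was 144 kb away.

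Of 44 other bHLH genes listed for comparison, 9 were unmarked in wild type. 5 of these had a presence pattern of Hand1, Neurod1 or Olig2, and 4 were marked in no list. Likeness was measured as the summed difference in the percentage of weaker peaks over the lists with a peak. The pattern of Hand1, all 3 knockouts without wild type, was found at 267 of the 6854 protein-coding genes unmarked in wild type. It was shared by Msgn1 (summed difference 24.1 percentage points over 3 lists), Tcf15 (37.0) and Ptf1a (46.7). Msgn1 and Tcf15 act in the embryonic mesoderm and somites, and Ptf1a in the pancreas and cerebellum. The pattern of Neurod1 and Olig2, found at 491 of those genes, was shared by Olig3, with differences of 2.80 and 6.20 points, and Helt, with 10.3 and 6.90, each over 1 list. None of the 44 shared the pattern of Olig1, which 56 of the 6854 genes had.

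Dimer partners, inhibitors and Notch pathway genes were mostly marked in every list, where 68.7% to 73.5% of all protein-coding genes were. All 3 E proteins, the dimer partners, were marked in every list, and in wild type the fold enrichment was 9.82 at Tcf3, 9.24 at Tcf4 and 17.7 at Tcf12. Some of these genes are far longer than the 9, Tcf4 spanning 345 kb and Tcf12 268 kb, and the part of length was not tested. All 4 Id genes, whose products block bHLH dimers, were marked in every list, with a wild-type median of 7.26. Id1, Id2 and Id3 are short, at 1160, 2294 and 1571 bp. Of the 10 Hes and Hey repressors, which act downstream of Notch, 9 were marked in wild type and 8, 10 and 9 in the Ezh2-Cko, Utx-cKO and Jmjd3-Cko lists. Hes2 was missing in Ezh2-Cko and Helt was added in Utx-cKO, while Hes1 and Hes3 were marked throughout. The wild-type median of the marked Hes and Hey genes was 5.87, but single genes were as low as the 9, Hes2 having 2.32. All 9 Notch ligands and receptors, Dll1, Dll3, Dll4 and Jag1 among them, were marked in every list.

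Factors closer in role to the family were less uniform. Of 15 other proneural bHLH genes 10 were marked in wild type and 9, 11 and 10 in those knockouts. Ptf1a was added in the 3 knockouts and Olig3 in Utx-cKO, whereas Neurod6 was marked in wild type alone and Neurod2 was missing in Ezh2-Cko. Of 12 mesodermal bHLH genes 9 were marked in wild type and 11 in each knockout, Tcf15 and Msgn1 being the genes added. In wild type the marked mesodermal genes had a median fold enrichment of 2.98, close to the 3.02 of the marked genes of the family. The highest of these mesodermal genes were Twist1, a bHLH factor of mesenchyme, with 13.1, and Twist2, with 4.91. Of 8 cardiac partner factors 5 were marked in wild type and 6, 7 and 6 in the knockouts, listed as above. Gata5 was added in all 3 knockouts and Nkx2-5 in Utx-cKO, while Gata4 and Gata6 were marked throughout. Ezh2-Cko, Utx-cKO and Jmjd3-Cko added 9.75%, 16.9% and 6.38% of all protein-coding genes unmarked in wild type. The shares of all protein-coding genes lost were 1.12%, 0.507% and 1.77%.

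**Figure D4:**
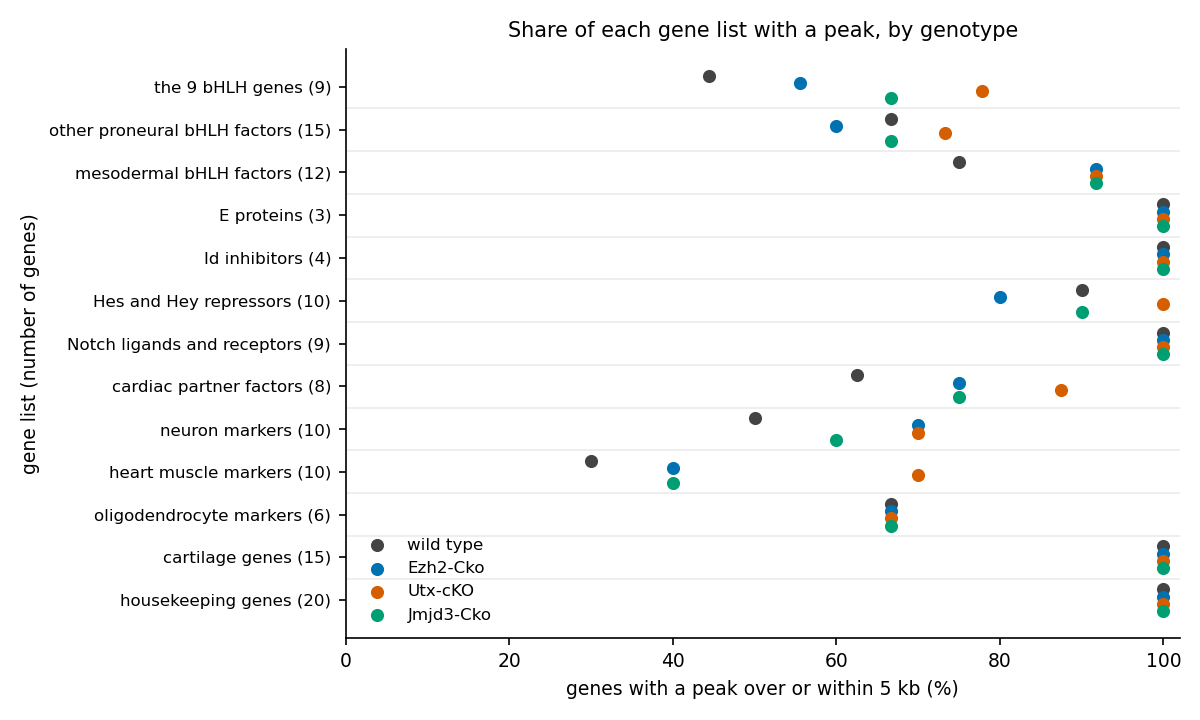
Points give the percentage of genes in each list with a peak over or within 5 kb, by genotype, with the number of genes in parentheses. The 9 bHLH genes stand at 44.4% in wild type and 77.8% in Utx-cKO, while E proteins, Id inhibitors, Notch genes, cartilage genes and housekeeping genes stand at 100% in all genotypes.

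The number of marked bHLH genes was lowest in wild type at the authors' threshold with the 5 kb window, and both the threshold and the window moved it. Values here are in the order wild type, Ezh2-Cko, Utx-cKO, Jmjd3-Cko. At a q of 0.001 or less the counts were 2 (Hand2 and Atoh1), 4, 6 and 5, where 65.3%, 66.7%, 69.4% and 66.5% of all genes were marked. At a fold enrichment of 4 or more they were 1, 1, 2 and 1, against 56.6%, 59.1%, 63.4% and 60.3%. With each list limited to its 27013 peaks of highest −log10 q the same genes were marked as with the full lists, in numbers of 4, 5, 7 and 6 against 68.4%, 69.1%, 69.8% and 68.9%. With peaks required to touch the gene itself the counts were 3, 2, 5 and 4, against 65.2%, 67.3%, 70.3% and 65.7%, so that Ezh2-Cko and not wild type was lowest. With 500 bp of overlap they were 3, 3, 4 and 4, against 64.5%, 67.0%, 70.4% and 65.4%.

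**Figure D5:**
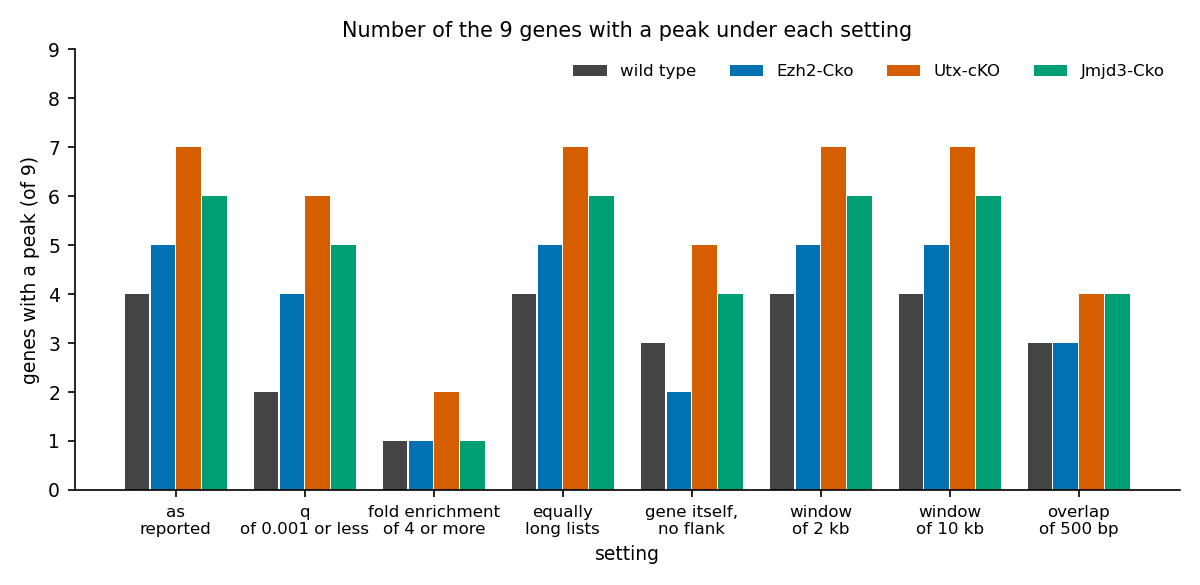
Bars give how many of the 9 genes had a peak in each genotype under the reported setting and the 7 alternatives. The counts are 4, 5, 7 and 6 as reported and 1, 1, 2 and 1 at a fold enrichment of 4 or more.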

How the data were processed

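The 4 peak lists, 1 per genotype, were analysed. The authors ran MACS 2.1.2 in broad mode, per the file headers, on each ChIP library with its own input as control, at a q of 0.05, keeping 1 duplicate and scaling the larger library to the smaller. The submitters' processing notes also list FastQC 0.11.5, Bowtie2, HOMER 4.10, deepTools 2.4.1 and ChIPseeker. For each peak the deposited file gives a pileup (coverage signal), −log10 p and −log10 q, a fold enrichment ratio over local input, and a length. Inputs held between 16599532 (wild type) and 24041619 (Ezh2-Cko) fragments.

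No source used here names the build. The peaks follow GRCm38: 13639 genes had a wild-type peak within 2 kb of an end, against 4790 and 4837 when genes were moved by 20 kb. Gene positions are RefSeq's for GRCm38.p6. The reference tables give no exons, and no strand for Hand1 and Olig1.

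Peaks counted from 1 bp of overlap. Ranks are by fold enrichment within a list. The marking step was tested on simulated peaks: 200 of 200 genes given a peak were found among 21887. The members and gene lists were chosen with earlier results of these data known. All 9 genes are named; from each other list up to 4 were, those differing from wild type first, then in list order. Length ratios of matched peaks were added after the data were seen. Alternatives were q of 0.001 or less, fold enrichment of 4 or more, equally long lists, no flank, 2 and 10 kb, 500 bp of overlap, other rank measures, and joining of peaks within 3 kb. Python 3.11.15, numpy 2.4.6, pandas 2.3.3 and matplotlib 3.10.9 were used.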

Additional observations from a re-analysis of the deposited data

How the results depend on the processing

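Counts of marked, added and lost genes were the same as reported with equally long lists and with windows of 2 and 10 kb. Values below are in the order wild type, Ezh2-Cko, Utx-cKO, Jmjd3-Cko, or the last 3 of these for added and lost genes. At a q of 0.001 or less 2, 4, 6 and 5 genes were marked and 2 (Hand1 and Neurog1), 4 and 3 were added, against 2.56%, 4.58% and 2.30% of all genes added. At a fold enrichment of 4 or more 1, 1, 2 and 1 were marked and 0, 1 and 0 added, against 3.71%, 7.11% and 4.61%. With no flank 3, 2, 5 and 4 were marked and 0, 2 and 1 added, against 3.22%, 5.57% and 2.12%, and 1 was lost, Atoh1 in Ezh2-Cko, where 1.05% of all genes were. With 500 bp of overlap 3, 3, 4 and 4 were marked and 0, 1 and 1 added (Hand1 in both), against 3.63%, 6.47% and 2.51%. Ranking by −log10 q moved none of 22 percentages by over 10 points, and ranking by pileup moved 5. Summed peak length moved by over 1.5 times for 1 of 22 values when peaks within 3 kb were joined and for 6 at a q of 0.001 or less. No paired analysis was possible because each genotype has 1 ChIP library, which also left no library to leave out. Of the called peaks 95% had a fold enrichment above 2.37, 2.37, 2.52 and 2.47, and enrichment left uncalled cannot be seen in the lists. The part of depth in this was not tested.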

Other observations

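Genes of the cells that these factors help to form were marked at shares between 30.0% and 70.0%. Of all protein-coding genes 68.7% to 73.5% were marked, and several of the shares below were near that. The lowest were those of heart muscle genes outside Utx-cKO. Of 10 heart muscle genes 3 were marked for wild type, 4 for Ezh2-Cko, 7 for Utx-cKO and 4 for Jmjd3-Cko. Myh6, the alpha cardiac myosin heavy chain, was added in all 3 knockouts, with fold enrichments of 4.63, 4.42 and 4.36 in Ezh2-Cko, Utx-cKO and Jmjd3-Cko. Tnnt2, Actc1 and Myl2, which encode sarcomere proteins, were added in Utx-cKO alone, with 2.49, 2.72 and 2.58. The calls at Tnnt2 and Myl2 were near the floor, as only 3.06% and 11.0% of the Utx-cKO peaks were weaker. At Actc1 26.8% were weaker. Utx-cKO added 16.9% of all protein-coding genes unmarked in wild type.

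Of 10 neuron genes 5 were marked in wild type and 7, 7 and 6 in those knockouts. Elavl3, an RNA-binding protein of neurons, was added in the 3 knockouts, and Nefl, a neurofilament, in Ezh2-Cko and Utx-cKO. At Elavl3 the fold enrichment was 2.69, 3.45 and 2.77 in Ezh2-Cko, Utx-cKO and Jmjd3-Cko, with 32.7%, 64.3% and 20.1% of peaks weaker. Tubb3 and Map2 were marked in every list. Of 6 oligodendrocyte genes 4 were marked in each list. Sox10, a regulator of the lineage, was added in each knockout and Mag, a myelin protein, was marked in wild type alone, while Mbp and Mog were marked in every list. Beside these, Ezh2-Cko, Utx-cKO and Jmjd3-Cko added 9.75%, 16.9% and 6.38% of the protein-coding genes unmarked in wild type. They lost 1.12%, 0.507% and 1.77% of all protein-coding genes. The 3 comparisons share the wild-type library.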
